A study of Homo sapiens with 11 samples.

Results

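The 80 cytosolic ribosomal protein genes described here were taken from a gene table of 57773 entries as the protein-coding entries named RPSA, RPLP0 to RPLP2, or RPL or RPS with a number and at most one of the letters A, X and L. A mean of at least 1 FPKM (fragments mapped to a transcript, scaled to its length and to the size of the library) over the 9 RNA-seq libraries was also required. The name rule matched 82 genes, and 33 of the 80 kept encode proteins of the small ribosomal subunit and 47 proteins of the large one. The members were thus selected on their mean FPKM, and their levels are given as a description only. The lowest members inside the threshold were RPS27L at 7.82 FPKM and RPL39L at 13.5 FPKM. The 2 genes outside it were RPL3L, at a mean of 0.232 FPKM, and RPL10L, which was listed at 0 in all 9 libraries.

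The libraries came from HCC78, a human lung adenocarcinoma cell line that carries an SLC34A2-ROS1 fusion and, from the start, U2AF1 with the S34F change. U2AF1 is the splicing factor subunit that contacts the AG at the 3′ end of introns, and S34F is a recurrent mutation in its first zinc finger. Subclones stably transduced with a doxycycline-inducible lentiviral construct (pTRIPz) for FLAG- and HA-tagged wild-type or S34F U2AF1 were compared with each other, with and without doxycycline, and with the parental line. The groups are WT dox+ (2 libraries), S34F dox+ (2), WT dox- (2), S34F dox- (1, labelled replicate 2) and parental (2). By the labels, S34F made up 12 and 14% of U2AF1 mRNA in WT dox+, 62 and 65% in S34F dox+, 33% in both WT dox- libraries, 28% in S34F dox- and 32% in both parental libraries. The doxycycline status of the parental cells is given differently in the labels (without) and in a supplementary table of the study (with). Each transduced line stands for 1 construct, so line and construct cannot be told apart, and nothing in the labels says whether replicates were separate cultures, so every p-value measures the spread between these libraries.

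Cytosolic ribosomes translate nearly all of a cell's mRNA, and each of their proteins is needed in nearly equal numbers. Their mRNAs are among the most abundant in growing cells, are short, and typically begin with a cytosine followed by a run of pyrimidines, the 5′ terminal oligopyrimidine (TOP) motif, through which mTOR signalling controls their translation. Transcription of ribosomal RNA, processing factors in the nucleolus and the ribosomal proteins together make up the ribosome assembly pathway.

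The starts of 9 member genes are shown because the motif is the feature of these mRNAs that the choice of members did not use. Each line gives the 15 bases before and the 15 bases from the annotated RefSeq start (GRCh38.p14), 5′ to 3′ on the strand of the gene. Capitals mark the pyrimidine run that opens the transcript or, where the start is not a cytosine with at least 4 pyrimidines after it, the first base alone.
RPS27 (chr1:153990747-153990776, plus strand): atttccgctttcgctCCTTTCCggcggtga
RPL14 (chr3:40457324-40457353, plus strand): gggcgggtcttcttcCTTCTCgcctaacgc
RPS16 (chr19:39435935-39435964, minus strand): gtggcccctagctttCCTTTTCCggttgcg
RPS23 (chr5:82278340-82278369, minus strand): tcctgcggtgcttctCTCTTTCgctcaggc
RPL24 (chr3:101686704-101686733, minus strand): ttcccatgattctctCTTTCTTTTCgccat
RPS18 (chr6:33272060-33272089, plus strand): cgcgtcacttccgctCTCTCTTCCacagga
RPS28 (chr19:8321481-8321510, plus strand): tccccgaagcacgtgActcctctccgccag
RPL4 (chr15:66504841-66504870, minus strand): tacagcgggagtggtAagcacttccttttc
RPS27L (chr15:63157463-63157492, minus strand): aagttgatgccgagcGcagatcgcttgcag
RPS27 is the most abundant member, RPL14, RPS16 and RPS23 were among the members with the largest differences with doxycycline, RPL24 and RPS18 were among those with the smallest, and RPS28, RPL4 and RPS27L were those at an unadjusted p under 0.05 between S34F dox+ and WT dox+. The table held a start for 63 of the 80 members. Of these 63, 46 (73.0%) began with a cytosine and at least 4 pyrimidines, against 5.14% of all 27305 genes in the table, and the run had a median length of 8 bases and reached 19 bases in RPL39. Of 3 other motifs searched on both strands around the start, CCGGAAG was found in 36.5% of members and 12.2% of all genes, GGGCGG in 58.7 and 48.3%, and AAGATGG in 12.7 and 7.11%. A match describes these letters only. Annotated starts were used as they stand, and a member without a match may start elsewhere in these cells. Where a gene had several starts, as 10 of the 63 members did, the start with the longest pyrimidine run was counted and shown. The same choice was made for all genes.

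U2AF1, the induced gene, stood at 278 and 299 FPKM in WT dox+ and at 164 and 223 FPKM in S34F dox+. It stood at 112 and 110 FPKM in WT dox-, 115 FPKM in S34F dox-, and 115 and 103 FPKM in parental cells. All 4 dox+ libraries were thus above the 5 others, and over both lines U2AF1 was higher with doxycycline by 1.05 on the log2(FPKM + 1) scale (SE 0.12, limma adjusted p = 0.0108). Of 11 genes that mark lung epithelial cells, 10 were at 1 FPKM or more in every library, summing to 8531 to 11572 FPKM. Of 7 markers of blood, endothelial and stromal cells, 3 were at 1 FPKM or more in every library. None of the 7 was under 1 FPKM in every library, and they summed to 23.0 to 46.1 FPKM. The files give no read depth per library. The number of genes at 1 FPKM or more ran from 13661 to 14688 in the libraries without doxycycline and from 15736 to 20896 in the dox+ libraries, with the highest number in S34F dox+ 2.

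The members were abundant throughout. FPKM is scaled to length, and levels are set side by side as listed. Reads shared with pseudogenes, described below, make the level and rank of some members uncertain, RPL39 among them. The mean over the 9 libraries had a median of 912 FPKM over the 80 members. It was at least 100 FPKM for 78 members and over 1000 FPKM for 35, and 41 members were among the 100 protein-coding genes with the highest means. The highest means were those of RPS27 (4201 FPKM), a zinc-binding small-subunit protein, RPL19 (3052 FPKM), which reaches across to the small subunit, RPL26 (2816 FPKM), which lies near the exit of the peptide tunnel, RPS24 (2648 FPKM) of the small subunit and RPL39 (2564 FPKM), a very short protein that lines the peptide tunnel. The lowest after RPS27L and RPL39L were RPS28 (122 FPKM) and RPS26 (126 FPKM), small-subunit proteins that sit near the path by which mRNA leaves the ribosome. The lowest members, RPS27L and RPL39L, are paralogs of abundant ones. RPS27L, a paralog of RPS27 known as a p53 target, ran from 6.15 to 9.12 FPKM, and RPL39L, a paralog of RPL39 best known from testis, ran from 9.93 to 17.6 FPKM.

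Variation among libraries was small. The ratio of the highest to the lowest library had a median of 1.33 over the members and was under 1.5 for 72 of the 80. The SD of log2 FPKM, here with no pseudocount, over the 9 libraries had a median of 0.13 for the members and 0.16 for 922 further protein-coding genes that averaged 100 FPKM or more, called the other abundant genes from here on. It fell to 0.08 for the members once the median member of each library was subtracted, so much of it was shared. The lowest library was a dox+ library for 75 members, S34F dox+ 2 in 55 of these cases, and the highest was a parental library for 51. Only 2 members had their highest value in a dox+ library.

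**Figure D1:**
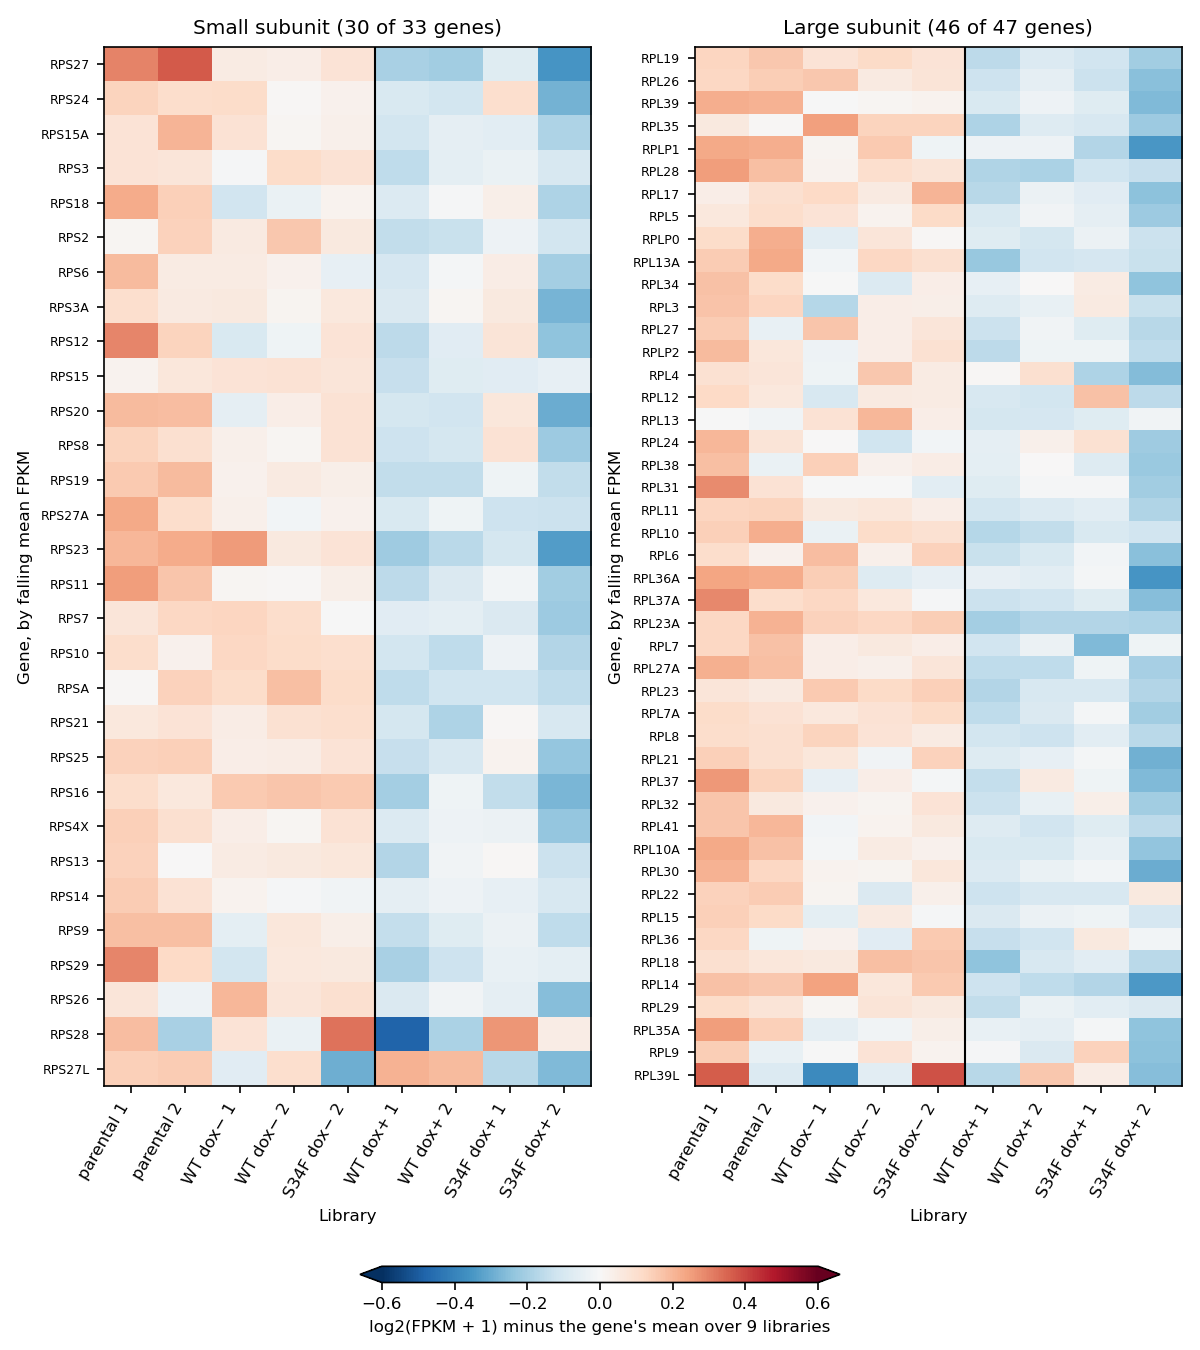
Level of 76 of the 80 ribosomal protein genes in the 9 libraries, as log2(FPKM + 1) minus the gene's mean over the libraries (colour, red above and blue below the mean, saturated at 0.6), with small-subunit genes on the left and large-subunit genes on the right. Most genes were below their mean in the 4 dox+ libraries, to the right of the black line, and above it in the parental libraries, while RPS28, RPS27L and RPL39L did not share that pattern.

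Members with processed pseudogenes at high listed levels are uncertain, since such copies can share reads with them. The 13 listed pseudogenes of RPL39 summed to 97.9% of the level of RPL39 itself, nearly all of it RPL39P3, those of RPL41 to 68.9% and those of RPL9 to 56.1%. Over all 843 ribosomal protein pseudogenes, the sum was 4.06 to 5.10% of the members' sum in the 5 libraries without induced U2AF1, 5.28 and 5.11% in WT dox+, and reached 6.76 and 6.69% in S34F dox+. The number of pseudogenes at 1 FPKM or more was 85 to 110 in those 5 libraries, 154 and 173 with doxycycline in the WT line, and 135 and 261 with it in the S34F line.

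The members' share of all expression was lowest in the dox+ libraries. Summed over the 80 genes, they took 7.93 and 7.66% of all FPKM in the parental libraries, 7.91 and 7.81% in WT dox-, and 8.10% in S34F dox-. With doxycycline they took 7.32 and 7.14% in the WT line and 6.69 and 6.37% in the S34F line, so the dox+ and other libraries did not overlap, nor did the WT and S34F lines with doxycycline. Relative to protein-coding genes alone the dox+ to dox- ratio of the mean shares was 0.946, compared with 0.862 over all genes, and the shares were 14.9 and 14.5% in the parental libraries, 13.9 and 13.7% in WT dox-, and 13.7% in S34F dox-. With doxycycline they came to 12.9 and 13.3% for the WT line and to 13.5 and 12.3% for the S34F line, and on this base the lines with doxycycline overlapped. In bulk RNA, less of these mRNAs per cell, fewer cells with high levels and more of other RNA cannot be told apart. Protein-coding genes took the lowest shares of all FPKM in S34F dox+ 1 and 2 (49.7 and 51.6%, against 52.9 to 59.1% elsewhere), and small nuclear RNAs the highest (13.8 and 12.2%, against 7.05 to 11.1%). The small-subunit genes made up 39.4 to 40.4% of the members' sum in every library.

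**Figure D2:**
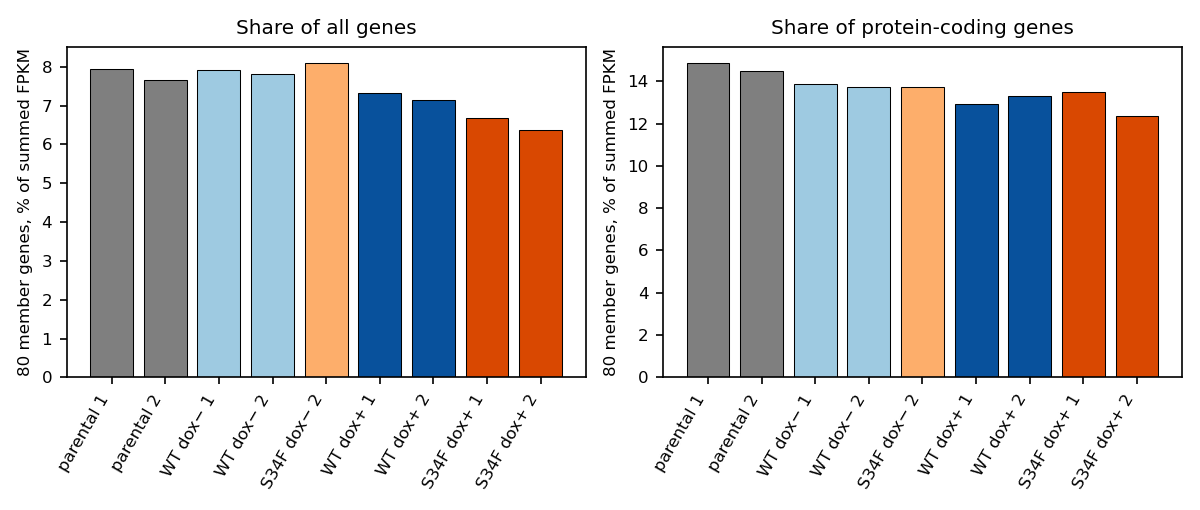
Summed FPKM of the 80 ribosomal protein genes in each library as a percent of all genes (left) and of protein-coding genes (right), with bars from 0 and 1 bar per library. The 4 dox+ bars (dark) lay between 6.37 and 7.32% of all genes and the 5 others between 7.66 and 8.10%, while on the right the dox+ bars lay between 12.3 and 13.5% and the others between 13.7 and 14.9%.

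Whether doxycycline, with induction of either construct, went with a change in the members was asked first over both lines, with the mean of WT dox+ and S34F dox+ set against the mean of WT dox- and S34F dox-. Every dox+ library had both the drug and an induced construct, so doxycycline itself and induced U2AF1 cannot be told apart. Of the 80 members, 78 had a lower fitted value with doxycycline, with a median log2 difference of -0.15, against 41.3% of the 15179 genes tested and a median of 0.08 over all of them. One member passed the test, the lower RPL23A (limma adjusted p = 0.0470), beside 1.09% of all genes called lower and 2.79% called higher. At an unadjusted p under 0.05, 28 members were lower and 0 higher, beside 9.22 and 15.9% of all genes. All 4 dox+ libraries were below all 3 dox- libraries for 48 members (9.76% of all genes), and below the parental ones too for 43 (3.16% of all genes and 11.4% of the other abundant genes). The other abundant genes had the same median of -0.15 with 687 of 922 lower. At an adjusted p under 0.05, 4.88% of them were called lower and 1.74% higher. Of the same genes, 33.3% were lower at an unadjusted p under 0.05, and in 33.2% all dox+ libraries were below the dox- ones.

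RPL23A, the large-subunit protein to which the signal recognition particle docks at the tunnel exit, stood at 977 and 966 FPKM in WT dox- and 981 FPKM in S34F dox-, and the parental values were 966 and 1025 FPKM. It stood at 769 and 784 FPKM in WT dox+ and 783 and 780 FPKM in S34F dox+. The dox+ values were tight and all below the others, and RPL23A fell by 0.33 on the log2 scale (SE 0.07, 20.2% lower). The call was lost when any 1 of the WT dox-, WT dox+ or S34F dox+ libraries was left out (adjusted p = 0.0581 to 0.158, log2 difference -0.33 to -0.32), under quantile normalization (-0.12, adjusted p = 0.476), with no minimum FPKM (adjusted p = 0.0983) and with the replicate number as a block (adjusted p = 0.0807). RPL14, a large-subunit protein, stood at 540 and 479 FPKM in WT dox- and 509 FPKM in S34F dox-. With doxycycline it stood at 420 and 411 FPKM in the WT line and 405 and 359 FPKM in the S34F line. Again no dox+ value reached a dox- value, and its log2 difference was -0.35 (SE 0.08, adjusted p = 0.0575). RPS16, a small-subunit protein that contacts the tRNA in the P site, stood at 540 and 544 FPKM in WT dox- and 540 FPKM in S34F dox-. It stood at 420 and 475 FPKM in WT dox+ and 436 and 399 FPKM in S34F dox+, without overlap and with a log2 difference of -0.32 (SE 0.08, adjusted p = 0.0650). RPS23, at the decoding centre (-0.32, adjusted p = 0.0877), RPL35 at the tunnel exit (-0.31, adjusted p = 0.0720), RPS27 (-0.27, adjusted p = 0.124) and RPSA, the laminin-receptor homolog of the small subunit (-0.26, adjusted p = 0.0829), followed without passing the test.

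Other members named for a known role or feature were not set apart. RPL5 and RPL11, which bind MDM2 together with 5S rRNA, had log2 differences of -0.18 and -0.16, and RPS6, the substrate of S6 kinase, one of -0.06. RPS19 and RPS14, known from Diamond-Blackfan anaemia and from the myelodysplastic syndrome with a deletion on the long arm of chromosome 5, had -0.15 and -0.05. The stalk proteins RPLP0, RPLP1 and RPLP2, which recruit translation factors, had -0.09, -0.18 and -0.14. RPL10, which is added late to the large subunit, had -0.20, RPL22 had -0.06, and RPL41, the shortest ribosomal protein, had -0.14. Their adjusted p-values in the same limma fit were between 0.156 and 0.685. At the other end, RPL24 of the bridge between subunits stood at 1121 and 1029 FPKM in WT dox- and 1107 FPKM in S34F dox-, and at 1079, 1144, 1194 and 964 FPKM in the 4 dox+ libraries. Its groups overlapped fully, with a difference of 0.00 (95% interval -0.23 to 0.23). RPS18 (-0.03), RPL3 of the peptidyl transferase centre (-0.04) and RPL31 (-0.04) were close to it, and RPS27L had the highest value (0.13, 95% interval -0.14 to 0.40, adjusted p = 0.512). The median was -0.15 in both subunits, -0.15 in the 46 members with a TOP-like start and -0.15 in the 17 without, and -0.16 in the 29 members that hold small nucleolar RNA genes within them and -0.15 in those that do not.

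**Figure D3:**
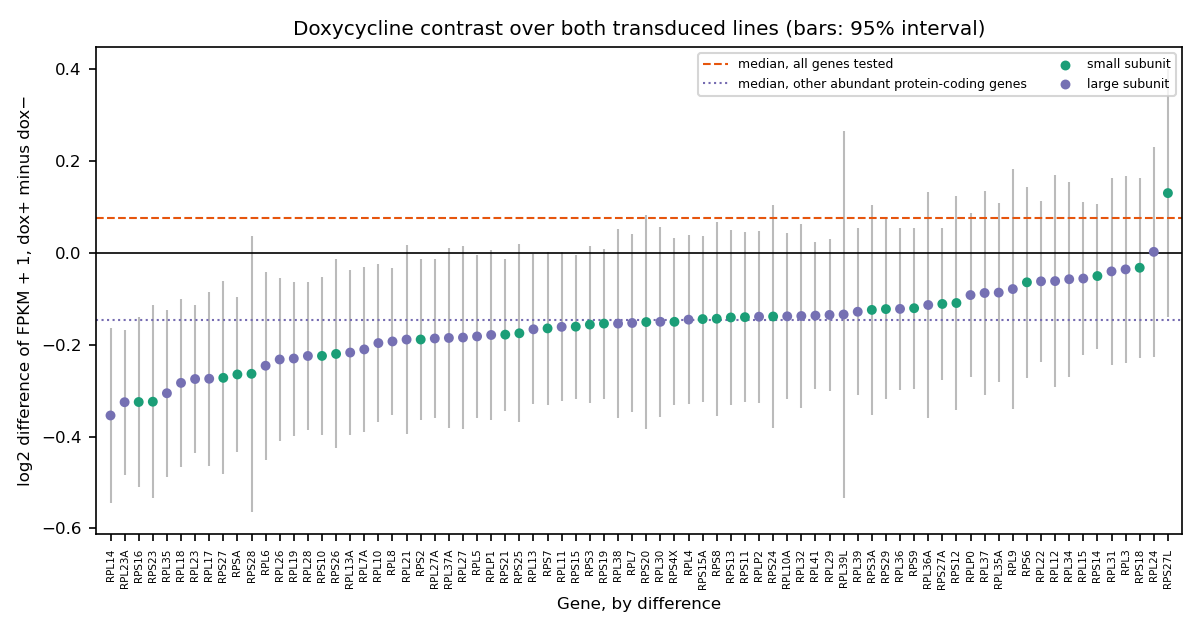
Log2 difference of FPKM + 1 between dox+ and dox- over both transduced lines for 76 of the 80 ribosomal protein genes, ordered by size, with points for the estimates and bars for their 95% intervals. Of the points, 74 lay below 0 around the median of the other abundant genes (dotted, -0.15) and under that of all genes (dashed, 0.08).

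The size of this shift depended on the scale. With the libraries rescaled by median ratios the members' median was -0.21 with 79 lower and 3 called (RPL23A, RPL14 and RPS16), with TPM (levels scaled to one fixed total per library) it was -0.20 with 79 lower and 7 called, and among protein-coding genes alone 4 were called (those 3 and RPL35). Quantile normalization, which gives every library the same distribution of values, left a median of -0.02 with 50 lower and 30 higher, and the 1 member called lower there was RPS27. The rise in the number of detected genes with doxycycline, given above, moved with the shift, and its part in it was not tested.

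Other genes tied to ribosomes and translation were counted in the same contrast, without a test against the members. Of 52 ribosome biogenesis genes, 50 were lower, with a median log2 difference of -0.40, and 10 fell at an adjusted p under 0.05. These were NPM1 and FBL of the nucleolus, the box C/D factor NOP56, the processing factors NOP16, CIRH1A, LTV1, NOB1 and DDX21, and the nucleolar GTPases GNL2 and GNL3. NPM1, which chaperones ribosomal proteins, went from 2054 and 1844 FPKM in WT dox- and 2006 FPKM in S34F dox- to 1460 and 1596 FPKM in WT dox+ and 1453 and 1348 FPKM in S34F dox+. The dox+ and dox- values did not overlap (log2 difference -0.43, SE 0.08, adjusted p = 0.0395), but the parental libraries, at 1654 and 1593 FPKM, lay close to the dox+ ones. Of the 78 mitochondrial ribosomal protein entries, 75 were lower with a median of -0.28, and MRPS24, MRPL15 and MRPL12 fell. Only 76 of the 78 averaged 1 FPKM or more. Each was represented by the highest entry of its name, so this list can hold a gene more than once. Under quantile normalization the medians of both lists stayed at -0.33 and -0.28, while 1 and 0 genes were called. The calls likewise went to 1 and 0 with the replicate block and to 0 in both lists with no minimum FPKM. Leaving out any 1 of the WT dox-, WT dox+ or S34F dox+ libraries gave 0 calls in either list, except that 11 biogenesis genes were called without WT dox- 2. S34F dox-, a single library, could not be left out. Of 8 other ribosomal components and paralogs all were lower (median -0.22, 0 called). RPL22L1, the paralog that can replace RPL22, had the lowest values in S34F dox+ (78.0 and 89.5 FPKM, against 139 to 173 FPKM in the 3 dox- libraries). Its higher WT dox+ value, given further below, reached the dox- range. Over both lines its log2 difference was -0.55 (limma adjusted p = 0.0514). Translation factors and other mRNAs with a known TOP motif were lower in 18 of 19 cases (median -0.12, 0 called). The 16 regulators of ribosomal protein mRNAs had a median of -0.08 and the 14 p53 response genes one of 0.17, with 0 called in either.

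In the WT line alone, 73 of 80 members were lower and 7 higher with doxycycline, beside 43.6 and 55.9% of all genes (median -0.13, against 0.05 for all genes and -0.10 for the other abundant genes). None passed limma at an adjusted p under 0.05 (0.00659% of all genes did in each direction), and 16 were lower and 0 higher at an unadjusted p under 0.05 (5.59 and 8.80% of all genes). The 2 groups did not overlap for 64 members lower (20.8% of all genes) and for 1 higher (28.9%), RPS27L. Among the other abundant genes the groups did not overlap for 45.8% lower and 13.9% higher, and 16.9 and 4.34% were so at an unadjusted p under 0.05. RPS28 went from 128 and 117 FPKM to 86.3 and 106 FPKM (log2 difference -0.36, SE 0.16), RPS23 from 999 and 872 FPKM to 721 and 749 FPKM (-0.34, SE 0.11), and RPL23A, as given above, differed by -0.32 (SE 0.09). RPS27L went from 7.34 and 8.37 FPKM to 9.12 and 8.98 FPKM (0.19, SE 0.15). Their adjusted p-values lay between 0.192 and 0.595. With quantile normalization the split was 43 lower and 37 higher.

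In S34F dox+ against WT dox+, the comparison of the mutant with the wild-type construct, no member passed the threshold. It shares the WT dox+ libraries with the comparison within the WT line. With limma, 0 members passed an adjusted p under 0.05 (0.0198% of all genes were called higher and 0.0329% lower), and 1 member (RPS28) was higher and 2 (RPL4 and RPS27L) were lower at an unadjusted p under 0.05 (4.01 and 2.77% of all genes). The groups did not overlap for 11 members higher and 9 lower, or 13.8 and 11.2% of members beside 20.5 and 15.3% of all genes. The median was -0.02 (0.03 for all genes), with 34 higher and 46 lower (55.0 and 44.6% of all genes). Of the other abundant genes, an unadjusted p under 0.05 was reached by 2.49% on the higher and 3.69% on the lower side, and the groups did not overlap for 14.8 and 26.7%. This balance rested on scale and on single libraries. It became 64 higher and 16 lower (median 0.05) without S34F dox+ 2, 17 higher and 63 lower (median -0.10) without S34F dox+ 1, and 2 higher and 78 lower (median -0.14) in TPM, where the median of all genes itself moved to -0.07.

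RPS28, which lies at the mRNA exit of the small subunit, stood at 145 and 125 FPKM in S34F dox+ and at 86.3 and 106 FPKM in WT dox+ (log2 difference 0.49, SE 0.16, unadjusted p = 0.0180, adjusted p = 0.623). Its value in S34F dox- was 151 FPKM and in WT dox- 128 and 117 FPKM, and the parental pair spanned 105 to 137 FPKM. RPS27L stood at 6.80 and 6.28 FPKM in S34F dox+ and 9.12 and 8.98 FPKM in WT dox+ (-0.42, SE 0.15, adjusted p = 0.656). It was as low in S34F dox-, a single library, at 6.15 FPKM, and stood at 7.34 and 8.37 FPKM in WT dox-. Whether the lines differed without doxycycline was not tested. RPL4, which lines the peptide tunnel, stood at 1179 and 1120 FPKM in S34F dox+ and 1347 and 1432 FPKM in WT dox+ (-0.27, SE 0.10, adjusted p = 0.669). Unlike RPS27L, it was not low in S34F dox-, at 1389 FPKM. RPLP1 of the stalk stood at 1511 and 1340 FPKM against 1672 and 1671 FPKM (-0.23, SE 0.10, adjusted p = 0.736). RPL36 (0.15, adjusted p = 0.810) and RPS29 (0.11, adjusted p = 0.894) had the next highest positive values without overlap. RPS29 turned to -0.01 in TPM. RPL22L1, the paralog of RPL22 and no member, stood at 78.0 and 89.5 FPKM against 114 and 140 FPKM (-0.59, SE 0.15, adjusted p = 0.531), while RPL22 itself had 0.09 (adjusted p = 0.901). For members named for a known role the 95% intervals bound what these libraries could show. They ran from -0.23 to 0.18 for RPL11, -0.30 to 0.15 for RPL5, -0.29 to 0.24 for RPS6 and -0.15 to 0.27 for RPS19.

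The responses of both lines to doxycycline did not differ detectably. The contrast of the S34F response with the WT response gave 0 members at an adjusted p under 0.05 and 0 at an unadjusted one in limma, beside 0.0198 and 0.00659% of all genes lower and higher at the first and 1.21 and 2.21% at the second. The median was -0.02 with 49 lower and 31 higher (45.6 and 54.2% of all genes), and it became -0.17 with 77 lower in TPM, where the median of all genes was -0.11. Since S34F dox- is 1 library, it adds nothing to the estimate of the spread and the intervals are wide. RPL4 had -0.26 (95% interval -0.63 to 0.11) and RPL39L had -0.71 (-1.51 to 0.09), and on the other side RPS28 had 0.19 and RPL13 0.16, all at an adjusted p of 1.00.

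Uninduced transduced cells were set against parental cells to see what went with transduction and cloning, although doxycycline may differ too, since the sources disagree on it for the parental cells. In WT dox- against parental, 62 members were lower and 18 higher, beside 49.8 and 49.6% of all genes (median -0.09, 0.00 for all genes and 0.04 for the other abundant genes), but in TPM 36 were lower and 44 higher (median 0.01, 0.09 for all genes). The counts thus changed sides with the scale, while the members' median relative to that of all genes was -0.09 as reported and -0.08 in TPM. With limma, 0 members passed an adjusted p under 0.05 (0.0593% of all genes were called lower and 0.0395% higher), and 3 were lower and 0 higher at an unadjusted p under 0.05 (6.54 and 5.79% of all genes). The groups did not overlap for 42 members lower and 6 higher (22.4 and 21.6% of all genes, 22.3 and 30.4% of the other abundant genes). RPS27 stood at 4299 and 4271 FPKM in WT dox- and 5103 and 5352 FPKM in parental cells (log2 difference -0.29, SE 0.11, adjusted p = 0.371). RPS12 (-0.27, adjusted p = 0.443) and RPS18 (-0.26, adjusted p = 0.385) of the small subunit followed, and RPL13 (0.16), RPL35 (0.16) and RPS16 (0.08) had the highest positive values without overlap, at adjusted p-values from 0.534 to 0.810. The ribosome biogenesis list stood on the other side in this comparison, which shares the WT dox- libraries with those of doxycycline, with 48 of 52 genes higher in WT dox- than in parental cells (median 0.30) and 17 of them at an unadjusted p under 0.05, though 0 were called. Of the 78 mitochondrial ribosomal protein entries, repeated names included, 57 were higher (median 0.08).

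Splicing was described from the study's event tables, which give for each event 1 estimate of percent spliced in (PSI, 0 to 1) and 1 read number for each side. The sides are numbered, and the first was taken as S34F and the second as wild type from the order in the tables' names. How replicates were combined is not given in the sources used here, so no error or test could be attached. PSI was read as the share of the form each table lists first, which is the form with the alternative exon or with the 3′ splice site nearer to the upstream exon. In retained-intron events the first form is the spliced one, and 58 of 78 such events in members had a PSI of at least 0.9 on both sides. With at least 20 reads on each side there were 491 events in 77 members, with median reads of 3674 and 5393, against 333 and 477 over all genes. The sides were 0.10 or more apart in 24 member events (4.89%; 8 higher and 16 lower in S34F), beside 29.8% of all 71638 events. Since depth differs, the same was counted over events with at least 1000 reads on each side, a limit chosen after seeing the data, which gave 3.61% of 416 member events and 11.1% of all events. In 381 of the 491 events PSI was at least 0.9 or at most 0.1 on both sides, and in 398 the sides were within 0.02.

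NAGNAG events, in which neighbouring AG dinucleotides compete as the 3′ splice site, held 9 of the 24 events apart in only 43 measured (20.9%, against 37.6% over all genes). The highest difference was in RPS15, a small-subunit protein of the decoding region, at the intron chr19:1438427-1438813 of the hg19 build that the submitters' notes name for the RNA-seq. The upstream AG was used in S34F at a PSI of 0.87, compared with 0.57 in wild type, on 3035 and 4127 reads, a difference of 0.30. RPLP0 had 0.36 and 0.18 at its NAGNAG of chr12:120637225-120638533 (5592 and 7655 reads), and RPL13 had 0.55 and 0.39 (2503 and 3830 reads). NAGNAG events went the other way in RPL3, at 0.35 in S34F and 0.52 in wild type (13522 and 19650 reads), and in RPS3, at 0.79 and 0.92 (1217 and 1932 reads). In all, 3 of the 9 were higher and 6 lower in S34F, the others among the lower being 3 in RPL8 and 1 listed under RPL23A on the opposite strand.

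Exon skipping made up 12 of the 24, or 6.98% of 172 measured events beside 28.8% over all genes, with 3 higher and 9 lower in S34F. RPL10 had a skipped exon at chrX:153628282-153629043 with PSI at 0.76 (S34F) and 0.59 (wild type, 2613 and 3841 reads), RPLP1 one at 0.90 and 0.74 (5191 and 9126 reads) and RPS15A one at 0.91 and 0.77 (3639 and 5637 reads). Lower inclusion in S34F was listed for RPL27A at chr11:8705628-8707225 (0.55 and 0.83, on only 135 and 193 reads), RPL10A (0.46 and 0.63, 1586 and 2680 reads), RPL28 (0.37 and 0.52, 3184 and 4619 reads) and RPS3 (0.52 and 0.64, 7204 and 9962 reads). The tables list an event under every gene it overlaps, and 25 of the 491 lay on the strand opposite to the member's deepest event, 7 of them apart. These included the lowest difference of all, a skipped exon listed under RPL4 (-0.32, 246 and 525 reads, chr15:66801230-66807864), and one listed under RPS9 (-0.21, 39 and 47 reads, chr19:54742965-54744150), so these do not describe RPL4 or RPS9 mRNA. On the strand of the member, which matched the RefSeq strand in 60 of 60 members that could be compared, 17 of 466 events were apart, 8 higher and 9 lower in S34F, in 13 genes. In gene level, the log2 differences between S34F dox+ and WT dox+ were 0.05 for RPS15, 0.01 for RPLP0, 0.06 for RPL10 and 0.04 for RPL27A, at adjusted p-values from 0.945 to 1.00.

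**Figure D4:**
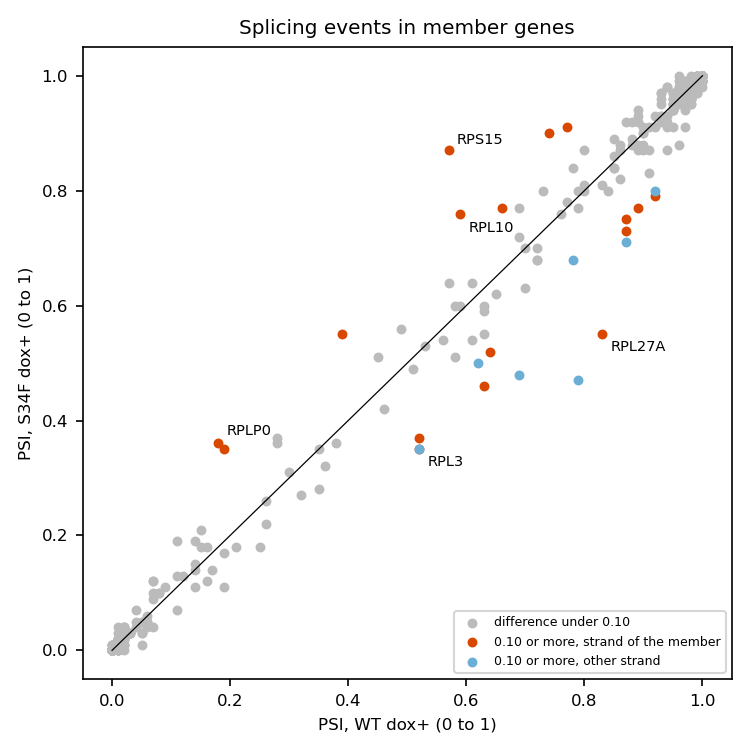
PSI of the 491 splicing events in ribosomal protein genes, with WT dox+ on the horizontal and S34F dox+ on the vertical axis, 1 point per event, and the diagonal marking equal PSI. Most events lay near 0 or 1 on the diagonal (grey), 17 on the strand of the gene were 0.10 or more apart (orange, with RPS15, RPLP0, RPL10, RPL27A and RPL3 named), and 7 on the other strand (blue) were all lower in S34F. The point of RPL3 lies under a blue one of RPL4 at the same PSI values.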

How the data were processed

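RNA-seq of 9 libraries was used, and the 2 other samples of the 11, which are of another assay, were not analysed here. The authors aligned reads with STAR 2.3.0 and estimated levels with RSEM 1.2.29, with hg19 named among the builds in the submitters' processing notes, and deposited FPKM and TPM per gene without read counts, so depth is unknown. Splicing event tables, which the authors made with MISO, hold PSI as a fraction and whole-number read counts as deposited for each side. Their columns of the PSI difference and Bayes factor are the authors' comparison and were not used, and 70 member events with several isoforms were left out.

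The 15179 genes that averaged 1 FPKM or more were fitted as log2(FPKM + 1) with limma 3.58.1 in R 4.3.3, with 1 mean per group over all 9 libraries, empirical Bayes and Benjamini-Hochberg adjustment over all genes. A fold on this scale understates changes of low genes. Tests are two-sided, intervals are 95%, and the limma code was tested on simulated data. Members were named when they passed an adjusted p under 0.05, otherwise up to 3 in each direction with the largest difference without overlap (or, for the contrast of responses, the 3 largest in each direction), together with the 5 highest and 5 lowest means, 17 members with known roles, U2AF1 and up to 3 splicing events in each direction. Other members and events named, which include RPL24, RPL31 and the splicing events beyond those 6, were chosen after their values were seen. A few members are counted but not reported by name or drawn here. Members, gene lists and tests were chosen with earlier results of these data known. Alternatives covered the pseudocount (0.1), the minimum FPKM (none, 5), median-ratio and quantile scaling, TPM, protein-coding genes only, a replicate block and the groups compared alone. Each library was also left out in turn, except S34F dox-, the only library of its group. TPM values used the same test with a pseudocount of 1.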

Additional observations from a re-analysis of the deposited data

How the results depend on the processing

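Quantile normalization turned the members' median, taken relative to that of all genes, from -0.23 to 0.02 on the log2 scale in dox+ against dox- over both lines, and from -0.18 to 0.01 in the WT line alone. In the comparison over both lines it was -0.31 with no minimum FPKM and -0.14 with a minimum of 5. The number of members called there, 1 by the reported test, was 3 with median-ratio scaling, 7 in TPM, 4 among protein-coding genes only, and 0 with no minimum FPKM and with the replicate block. Leaving out 1 library at a time, which could not be done for S34F dox- as the only library of its group, gave 0 calls throughout. The relative medians were then -0.28 to -0.18 over both lines, -0.21 to -0.17 in the WT line and -0.15 to 0.05 in S34F dox+ against WT dox+ (-0.05 as reported). They were -0.17 to 0.03 for the contrast of responses (-0.05) and -0.11 to -0.07 in WT dox- against parental (-0.09). RPS29 in S34F dox+ against WT dox+ turned from 0.11 to -0.01 in TPM. The ratio of the members' share with and without doxycycline, 0.862 of all genes, was 0.946 of protein-coding genes. The 24 splicing events apart became 4 at a PSI difference of 0.20 and 15 at 1000 reads on each side. Apart from leaving out libraries, 206 values of named members kept their direction and side of the threshold, while 6 newly passed it, 3 no longer did and 1 reversed. Replicate numbers are shared between groups by number only, with correlations of deviations between -0.0756 and 0.0374 over genes, and the block left RPL23A uncalled, and gave 1 instead of 10 calls among biogenesis genes, 0 instead of 3 among mitochondrial ribosomal protein genes and 242 instead of 589 over all genes, while no other named member changed its call. The fit to the compared groups alone could not be made for the contrasts that use S34F dox-, which is 1 library. The causes were not tested.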
